A study of Oryctolagus cuniculus with 6 samples.

Results

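The genes described here are 31 targets of the transcription factor p53 and parts of the damage checkpoint, read by gene symbol. These genes, their roles and the further lists below were chosen with earlier results of these data known. Shares of a list set beside those of all genes are therefore descriptions and no test. By the role each product is best known for, 8 were grouped under growth arrest, 11 under apoptosis, 4 under DNA repair and nucleotide supply, 4 under feedback on p53, and 4 under redox control and metabolism. Of the 31, 29 were found by symbol among the 17396 genes listed, and all 29 passed the filter on low counts that left 14003 genes to test. GADD45B and PMAIP1 were not analysed here.

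Ionizing radiation breaks DNA, and the kinases that sense the breaks stabilize p53, which then switches on a broad set of genes. Their products halt the cell cycle, repair DNA, adjust metabolism or start cell death, and some of them act back on p53 to end the response. In a nerve trunk such a response can come from Schwann cells, fibroblasts, endothelial cells and infiltrating immune cells alike.

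Facial nerve RNA from wild type, male Japanese white rabbits, 3 to 4 months old, was sequenced on day 14 after surgery. All rabbits had the main nerve trunk cut. Rabbits of the FNI group had this facial nerve injury alone, and those of the FNI+I-125 group also received 1 iodine-125 seed, a sealed source of low-energy photons, beside the nerve. Each group had 3 libraries, and intact nerve was not analysed here, so every difference is that between a cut nerve with and without a seed.

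Total counts ran from 16031151 to 16798012 per library. Values are given as CPM, counts relative to library size after TMM scaling, which corrects for differences in RNA composition. The Schwann cell gene SOX10 was read in every library, with 832 to 4689 counts. The summed CPM of 12 Schwann cell markers was 4500 to 38801 in the FNI libraries and 873 to 4138 in the FNI+I-125 libraries. Macrophage markers, 12 of 14 with values, summed to 333 to 1288 CPM against 1896 to 2503 CPM. Skeletal muscle markers, 21 of 26 with values, reached 6925 and 6179 CPM in FNI+I-125 replicates 1 and 2, against 69.9 CPM in replicate 3 and 111 to 214 CPM in the FNI libraries. T and NK cell markers, 9 of 11 with values, summed to 5.20 to 42.0 CPM against 42.2 to 136 CPM, and adipocyte markers, 6 of 7 with values, to 1618 to 4336 CPM against 1027 to 1497 CPM. Salivary gland markers, 8 of 18 with values, reached 58479 CPM in FNI replicate 2, against 28.1 to 3397 CPM in the other 5 libraries. None of these markers was at 0 in all 6 libraries. The libraries are of whole tissue, where fewer cells of a type and less RNA per cell cannot be told apart.

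Compared to the FNI group, 13 of the 29 p53 target genes stood higher with the seed and 1 stood lower, taking genes with an unadjusted p under 0.05 in edgeR's quasi-likelihood test. Over all genes tested, 9.23% were higher and 7.73% were lower by the same criterion. The cyclin-dependent kinase inhibitor CDKN1A stood highest by fold change at 4.68 times its FNI level, followed by SESN2 at 2.80, EDA2R at 2.77 and TIGAR at 2.67 times. In the 14 genes at the unadjusted p, every FNI+I-125 library lay on the same side of every FNI library, and these were all 14 target genes whose groups did not overlap. Groups without overlap were found for 14.8% of all genes in the higher direction and 12.3% in the lower one. The median log2 fold change was 0.29 over the 29 genes and 0.01 over all genes tested.

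After Benjamini-Hochberg adjustment over all genes, edgeR called 0 of the 29 genes, as it called 0% of all genes, with adjusted p from 0.280 to 0.289 for the 14 genes above. The Wald test of DESeq2, adjusted the same way, called 8 of the 29 higher at an adjusted p under 0.05, where it called 3.86% of all genes higher. It called 0 of them lower, against 2.62% of all genes. These 8 genes were CDKN1A, EDA2R, SESN2, MDM2, BTG2, BAX, ZMAT3 and AEN, and each of them kept an unadjusted p under 0.05 in edgeR when any 1 library was left out. The DESeq2 calls among the 29 were less stable, with 4 genes higher without FNI replicate 1 or without FNI+I-125 replicate 2. There were 5 without FNI replicate 2 or FNI+I-125 replicate 3. These 5 included TIGAR in the former fit and FAS in the latter, which are not among the 8. Over all genes, DESeq2 called 344, 258, 590 and 553 higher in these 4 fits, in the order given, against 537 with all libraries. The 13 genes higher at the unadjusted p in edgeR became 8 without FNI replicate 1, where the share of all genes went from 9.23% to 6.2%. With 3 libraries against 3, the exact permutation test cannot give a p below 0.1, which is the value for each of the 14 genes. With upper-quartile scaling in place of TMM, the genes at the unadjusted p were 1008 higher and 1379 lower over all genes, against 1293 and 1082, and among the target genes 12 were higher and 1 was lower.

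**Figure D1:**
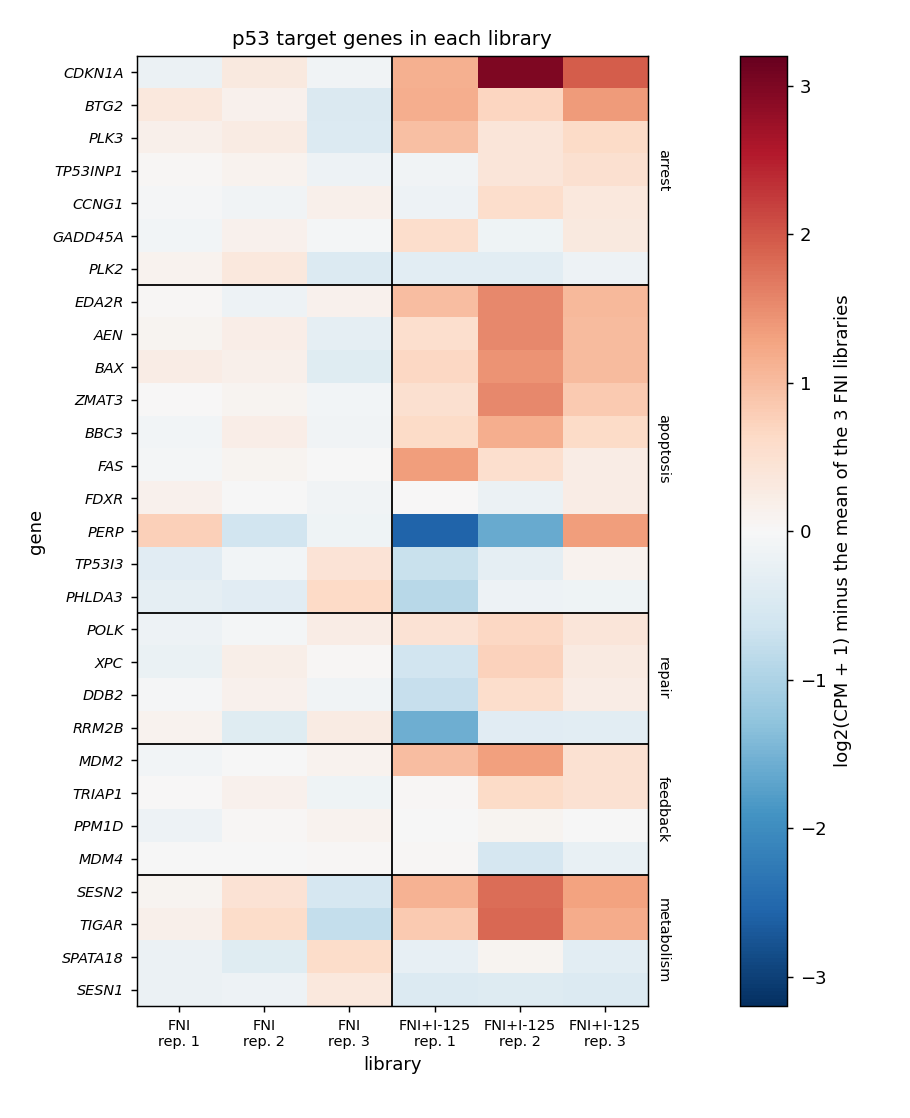
Each row is 1 of the 29 target genes, ordered by role and fold change, and each column is 1 library, with the colour giving log2(CPM + 1) minus the mean of the 3 FNI libraries. CDKN1A in FNI+I-125 replicate 2 is the darkest red cell, and PERP is blue in FNI+I-125 replicates 1 and 2 and red in replicate 3.

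Among the arrest genes, 3 of 7 were higher at the unadjusted p, 0 were lower, and the median log2 fold change was 0.29. CDKN1A, which encodes p21 and blocks the entry into S phase, stood at 41.7, 59.5 and 44.4 CPM in FNI replicates 1, 2 and 3. With the seed, replicates 1, 2 and 3 had 106, 389.9 and 186 CPM, and values of other genes follow this order of libraries. The lowest FNI+I-125 library was thus 1.78 times the highest FNI library, and replicate 2 was far above its own group. The means were 48.6 ± 9.60 CPM and 227 ± 146 CPM (SD, n = 3 each). Its log2 fold change was 2.23 (standard error 0.49), with an adjusted p of 0.00108 from DESeq2. Without FNI+I-125 replicate 2 the log2 fold change of CDKN1A was 1.56, and the DESeq2 call held whichever library was left out.

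BTG2, an antiproliferative gene that is also induced early by growth signals, was read at 42.3, 37.0 and 24.0 CPM without the seed and at 76.5, 54.4 and 88.0 CPM with it. The groups did not overlap, the log2 fold change was 1.08 (standard error 0.28), and DESeq2 gave an adjusted p of 0.0209. That call was lost without FNI replicate 2 or without FNI+I-125 replicate 1 or 3. PLK3, a stress-responsive kinase, had 13.5, 14.4 and 8.57 CPM against 23.9, 15.8 and 18.6 CPM. The gap between the groups was narrow, with the lowest FNI+I-125 library 1.10 times the highest FNI library, and the log2 fold change was 0.67 (standard error 0.27). PLK3 was past the unadjusted p only without FNI replicate 2 or without FNI+I-125 replicate 2, when single libraries were left out.

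The other 4 arrest genes overlapped between the groups. GADD45A, a stress sensor that interferes with CDK1, had 45.8 to 54.4 CPM in the FNI libraries and 44.9 to 72.6 CPM with the seed. TP53INP1, which promotes p53 phosphorylation and autophagy, had 86.6 to 104.9 CPM against 89.5 to 137.7 CPM. CCNG1, an atypical cyclin that binds a phosphatase, had 215 to 260.2 CPM against 207 to 343 CPM. Their log2 fold changes lay between 0.27 and 0.29. PLK2, a relative of PLK3 that acts at the centrosome and in neurons, had 47.9 to 83.0 CPM against 51.8 to 59.0 CPM, a log2 fold change of -0.31 (standard error 0.22).

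**Figure D2:**
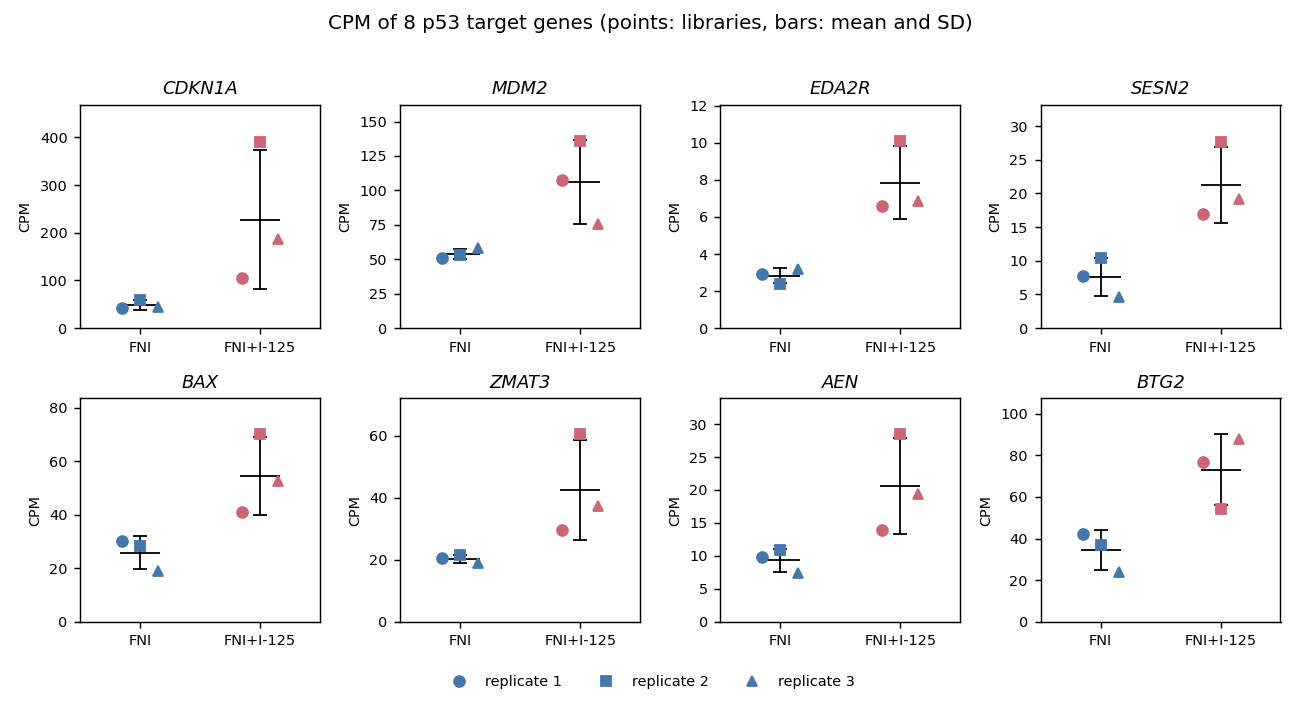
CPM of the 8 genes that DESeq2 called higher, on axes that start at 0, with 1 point per library, the shape giving the replicate and the bars the mean and SD of each group. In every panel the 3 FNI+I-125 points lie above the 3 FNI points, and replicate 2 is the highest of them in 7 of the 8 panels, the exception being BTG2.

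In the apoptosis group 6 of 10 genes were higher at the unadjusted p, 0 were lower, and the median log2 fold change was 0.89. EDA2R, a death receptor of the TNF receptor family that binds ectodysplasin A2, had 2.93, 2.39 and 3.19 CPM without the seed and 6.60, 10.1 and 6.87 CPM with it. The lowest value with a seed was 2.07 times the highest without one, the widest such gap among the 29 genes. DESeq2 gave an adjusted p of 0.00212. The log2 fold change in edgeR, 1.47 with a standard error of 0.28, stayed between 1.22 and 1.58 with any 1 library left out, and the DESeq2 call held in all 6 of these fits.

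BAX, which permeabilizes the outer mitochondrial membrane, stood at 30.3, 28.3 and 19.0 CPM against 40.9, 70.0 and 52.4 CPM. AEN, an exonuclease that takes part in DNA fragmentation, stood at 9.78, 10.8 and 7.33 CPM against 13.9, 28.4 and 19.4 CPM. ZMAT3, an RNA-binding protein that stabilizes or processes target transcripts, stood at 20.5, 21.5 and 19.0 CPM against 29.5, 60.5 and 37.2 CPM. All 3 genes shared 1 order, with FNI+I-125 replicate 2 above replicate 3, replicate 3 above replicate 1, and replicate 1 above every FNI library. Their log2 fold changes were 1.07, 1.14 and 1.06, with DESeq2's adjusted p at 0.0218, 0.0346 and 0.0314. The DESeq2 call of BAX was lost without FNI replicate 3 or FNI+I-125 replicate 2 or 3. That of AEN was lost without any 1 library other than FNI+I-125 replicate 1, and that of ZMAT3 without any FNI library or without FNI+I-125 replicate 3. Without FNI+I-125 replicate 2 the log2 fold change of ZMAT3 was 0.69.

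BBC3, which encodes the BH3-only protein PUMA, had 4.16, 5.42 and 4.08 CPM without the seed and 7.39, 11.4 and 7.40 CPM with it. The groups did not overlap, with a log2 fold change of 0.94 (standard error 0.27), and DESeq2's adjusted p of 0.0613 missed the threshold. BBC3 lost the unadjusted p in edgeR without FNI replicate 1 or FNI+I-125 replicate 2. FAS, the receptor of FAS ligand, had 9.19, 10.4 and 9.57 CPM against 26.1, 14.7 and 11.6 CPM. Unlike the other 5 apoptosis genes at the unadjusted p, it peaked in replicate 1 of the seed group. Without that library its log2 fold change went from 0.84 to 0.43. The unadjusted p of FAS held only without FNI+I-125 replicate 3 when 1 library was left out.

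The remaining 4 apoptosis genes did not share this direction. FDXR, the ferredoxin reductase of mitochondria, had 5.26 to 6.44 CPM against 4.93 to 7.04 CPM, a log2 fold change of 0.04 that turned to -0.0033 with upper-quartile scaling. TP53I3, a quinone reductase linked to oxidative stress, had 2.99 to 5.91 CPM against 2.09 to 4.52 CPM, a log2 fold change of -0.37 (standard error 0.42). PHLDA3, which competes with AKT for membrane lipids, had 132, 125 and 247 CPM against 85.2, 142 and 145 CPM. Its log2 fold change of -0.44 (standard error 0.35) rested on FNI replicate 3, without which it was -0.07.

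PERP, a membrane protein of desmosomes as well as an apoptosis effector, had the largest standard error of the 29 genes. It stood at 69.6, 26.1 and 36.6 CPM without the seed and at 6.08, 12.7 and 103.8 CPM with it, so that the seed group held both the lowest and the highest values. The log2 fold change was -0.11 (standard error 1.05), 0.40 without FNI+I-125 replicate 1 and -2.24 without replicate 3, when DESeq2 called it lower. Keratinocyte and epithelial markers, 11 of 12 with values and none at 0 throughout, summed to 1249, 382 and 190.1 CPM without the seed and to 40.7, 55.7 and 1916 CPM with it. The 2 libraries with the highest PERP were thus those with the highest sums, and their part in the PERP values was not tested.

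**Figure D3:**
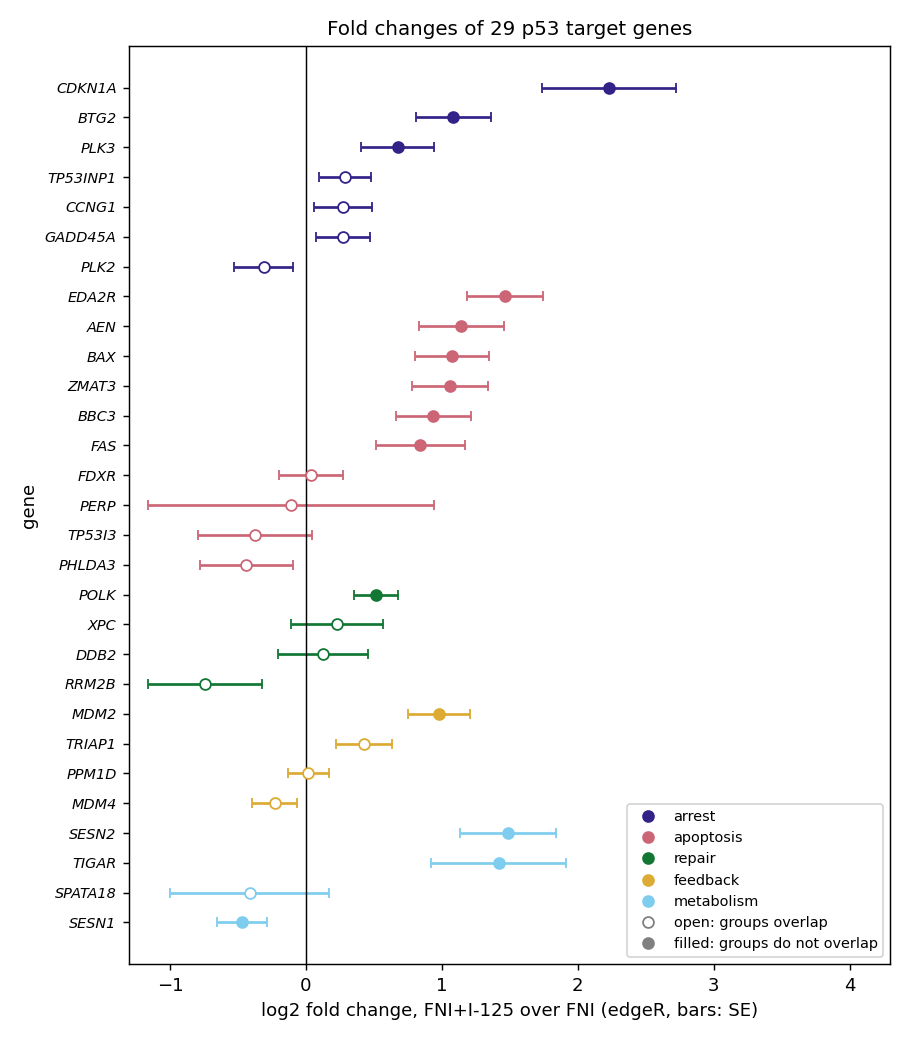
Log2 fold change of each target gene, FNI+I-125 over FNI, with the standard error from edgeR, coloured by role and filled where the groups did not overlap. The 13 filled points on the right run from POLK at 0.52 to CDKN1A at 2.23, and SESN1 is the filled point on the left.

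Of the 4 repair genes, 1 was higher at the unadjusted p, and the group's median log2 fold change was 0.18. POLK, a polymerase that copies past damaged bases, had 22.3, 23.9 and 29.5 CPM against 34.6, 40.5 and 33.1 CPM. It had a small and even difference, with a log2 fold change of 0.52 (standard error 0.16), and lost the unadjusted p without FNI replicate 1 or 2 or FNI+I-125 replicate 2. XPC and DDB2, which recognize lesions for nucleotide excision repair, had the same order of seed libraries. XPC stood at 59.3, 78.0 and 70.5 CPM without the seed and at 44.9, 114 and 83.8 CPM with it, while DDB2 stood at 39.0, 43.7 and 36.9 CPM and at 23.6, 59.4 and 47.3 CPM.

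For both genes FNI+I-125 replicate 1 was below all FNI libraries and replicates 2 and 3 were above all of them. The log2 fold changes were 0.23 (standard error 0.34) for XPC and 0.12 (standard error 0.33) for DDB2, and without FNI+I-125 replicate 2 they were -0.14 and -0.20. RRM2B, the p53-inducible subunit of ribonucleotide reductase, had 15.6, 10.7 and 17.3 CPM against 4.12, 10.8 and 11.1 CPM. Replicate 1 of the FNI+I-125 group was again the lowest library, and the groups overlapped between 10.7 and 11.1 CPM, with a log2 fold change of -0.74 (standard error 0.42).

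Among the feedback genes 1 of 4 was higher at the unadjusted p. MDM2, the ubiquitin ligase that degrades p53 and is itself a p53 target, had 50.6, 53.1 and 58.1 CPM without the seed and 107, 136 and 75.4 CPM with it. The FNI libraries were close together and the FNI+I-125 libraries were all above them. The log2 fold change was 0.98 with a standard error of 0.23. DESeq2 gave an adjusted p of 0.0147, a call that held without FNI replicate 3 or FNI+I-125 replicate 3 and was lost without any 1 of the other 4 libraries.

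MDM4, the MDM2 relative that binds p53 without degrading it, had 127, 127 and 132 CPM against 131, 87.9 and 109 CPM, a log2 fold change of -0.23 (standard error 0.17). PPM1D, the phosphatase WIP1 that switches off the damage kinases, had 13.7 to 16.7 CPM against 15.2 to 16.4 CPM, a log2 fold change of 0.02 (standard error 0.15) whose sign turned under upper-quartile scaling and library size scaling. TRIAP1, grouped here though it is a small inhibitor of apoptosis, had 15.1, 16.6 and 13.6 CPM against 15.4, 23.6 and 21.7 CPM. Its groups overlapped through FNI+I-125 replicate 1.

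Among the redox and metabolism genes 2 of 4 were higher at the unadjusted p and 1 was lower. SESN2, a sestrin that restrains mTORC1 and supports antioxidant defence, had 7.73, 10.4 and 4.67 CPM against 16.9, 27.7 and 19.2 CPM. The lowest value with a seed was 1.63 times the highest without one. The log2 fold change was 1.49 with a standard error of 0.35. DESeq2 gave an adjusted p of 0.00912, and this call was lost without FNI replicate 1 or FNI+I-125 replicate 2. TIGAR, a phosphatase that diverts glucose from glycolysis into the pentose phosphate pathway, had 5.10, 7.24 and 2.25 CPM against 8.82, 18.6 and 11.5 CPM. The log2 fold change of 1.42 had a standard error of 0.50, DESeq2's adjusted p was 0.0845, and the unadjusted p in edgeR was lost without FNI replicate 1 or FNI+I-125 replicate 2 or 3.

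SESN1, the other sestrin among the target genes, was the 1 gene of the 14 that was lower. It stood at 24.8, 25.3 and 36.3 CPM without the seed and at 20.7, 21.0 and 20.7 CPM with it. The seed libraries were nearly equal and lay just below the FNI libraries, with a log2 fold change of -0.47 (standard error 0.18), which was -0.29 without FNI replicate 3. The unadjusted p of SESN1 held only without FNI replicate 1 or without FNI replicate 2. SPATA18, a mediator of mitochondrial quality control, had the lowest counts of the 29 genes, with 16, 11 and 39 counts against 13, 22 and 13. Its groups overlapped, and its log2 fold change of -0.41 (standard error 0.58) became 0.25 without FNI replicate 3.

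The related genes MDM2 and MDM4, SESN2 and SESN1, and PLK3 and PLK2 had log2 fold changes of opposite sign. Since the ratio of 2 genes within a library does not depend on how libraries are scaled, it was taken for MDM2 over MDM4, SESN2 over SESN1 and PLK3 over PLK2, pairs picked after their values had been seen. The MDM2 to MDM4 count ratio was 0.398, 0.420 and 0.441 without the seed and 0.818, 1.55 and 0.689 with it. It was 2.28 times higher with the seed, a log2 difference of 1.19 that stayed between 0.84 and 1.43 with any 1 library left out. The SESN2 to SESN1 ratio was 0.312, 0.410 and 0.129 against 0.820, 1.32 and 0.929, 3.94 times higher.

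For PLK3 over PLK2 the ratio was 0.190, 0.174 and 0.179 against 0.462, 0.303 and 0.314, 1.95 times higher. None of the 3 ratios overlapped between the groups. Each had an exact permutation p of 0.1, two-sided, the smallest that 3 libraries against 3 allow. Since the pairs were picked after their opposite signs had been seen, the choice favoured this separation, which adds no support to the single-gene values. A count ratio compares libraries and says nothing about which of 2 genes has more transcripts, since the genes differ in length.

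**Figure D4:**
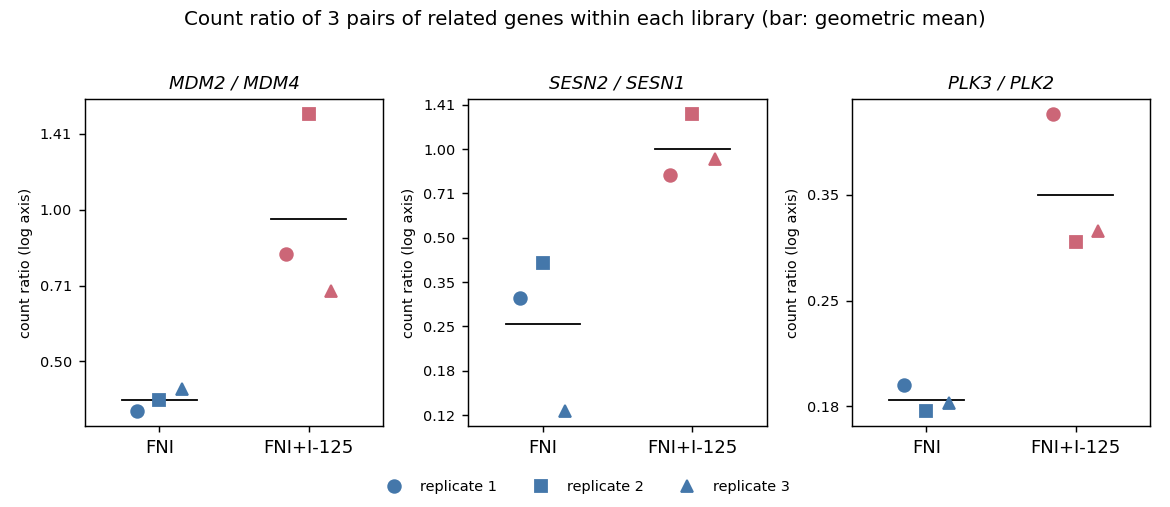
Count ratio of MDM2 to MDM4, SESN2 to SESN1 and PLK3 to PLK2 within each library on a log axis, with 1 point per library, the shape giving the replicate and the bar the geometric mean of the group. The MDM2 to MDM4 ratio is 0.398 to 0.441 without the seed and 0.689 to 1.55 with it.

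The 3 FNI+I-125 libraries did not carry the difference equally. FNI+I-125 replicate 2 held the highest value of all 6 libraries for 14 of the 29 genes, or 48.3%, where it held the highest value for 16.7% of all genes tested. The order replicate 2, then 3, then 1 within the group was seen for 13 of the 29 genes, or 44.8%, against 19.8% of all genes, and CDKN1A, BAX, AEN, EDA2R, ZMAT3, XPC, DDB2, SESN2 and TIGAR were among them. For BBC3 and SESN1, also counted here, replicates 1 and 3 were nearly equal. FNI+I-125 replicate 3 lay above every FNI library for 21 genes, or 72.4%, against 31.9% of all genes. Replicate 2 did so for 18 genes, or 62.1%, against 31.2%, and replicate 1 for 14 genes, or 48.3%, against 35.7%. Replicate 3, with 21 genes above every FNI library, had 69.9 CPM of muscle markers, less than any FNI library. In FNI+I-125 replicates 1, 2 and 3, macrophage markers summed to 1896, 2503 and 2153 CPM, and Schwann cell markers to 873, 4138 and 1988 CPM. T and NK cell markers summed to 42.2, 136 and 47.0 CPM. These sums also had the order replicate 2, then 3, then 1, while the other marker sums had other orders. The part of tissue content in the order of the target genes was not tested. With FNI+I-125 replicates 1 and 2 left out together, which leaves 1 seed library, the median log2 fold change was 0.36 over the 29 genes. Over all genes it was -0.04. In that fit the log2 fold change of MDM2 was 0.45, against 0.98 with all libraries, and that of FAS was 0.21, against 0.84. For CDKN1A it was 1.90, against 2.23, and for BTG2 it was 1.31, against 1.08. That fit was chosen after seeing the data and reuses libraries of the main fit, so it is no separate test of the target genes.

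The genes around p53 that are not among the 29 genes were read from 4 further lists. Of 28 damage sensors, checkpoint kinases and p53 regulators tested, 4 (14.3%) were higher at the unadjusted p and 0 were lower. These shares stand beside 9.23% and 7.73% of all genes, and the median log2 fold change was 0.10. At the adjusted p, edgeR and DESeq2 each called 0 of the 28, where DESeq2 called 3.86% of all genes higher and 2.62% lower. PML, a scaffold of nuclear bodies, had a log2 fold change of 0.61 (standard error 0.19), and HUS1, part of the clamp that activates ATR, had 0.42 (standard error 0.14). CHEK2, the kinase downstream of ATM, had 1.99, 2.02 and 0.827 CPM against 4.05, 4.14 and 3.29 CPM, and CLSPN, which presents CHEK1 to ATR, had 2.75, 2.46 and 1.60 CPM against 11.6, 3.71 and 4.23 CPM. CHEK1, the S phase and G2 kinase, had a log2 fold change of 0.54 (standard error 0.23) and missed the unadjusted p.

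Of 41 other p53 targets tested, 9 were higher and 3 were lower at the unadjusted p, beside 9.23% and 7.73% of all genes, and the median log2 fold change was 0.11. At the adjusted p, edgeR called 0 of them. DESeq2 called 3 higher and 2 lower of the 40 with an adjusted p, beside 3.86% and 2.62% of all genes. STEAP3, a ferrireductase, had 16.8, 13.5 and 8.27 CPM against 35.1, 32.1 and 27.5 CPM, a log2 fold change of 1.30 (standard error 0.28). PRDM1, a regulator of plasma cell and T cell differentiation, had 2.56 (standard error 0.78), and PCNA, the replication clamp, had 0.39 (standard error 0.13). CD82, a tetraspanin, and the drug efflux pump ABCB1 were lower, with log2 fold changes of -1.12 (standard error 0.28) and -1.002 (standard error 0.30).

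Most of the cell cycle genes that p21 acts to repress through the DREAM complex had higher levels with the seed. Of 30 tested, 17 (56.7%) were higher and 0 were lower at the unadjusted p, beside 9.23% and 7.73% of all genes. At the adjusted p, edgeR called 0 of the 30. DESeq2 called 6 higher and 0 lower of the 29 with an adjusted p, beside 3.86% and 2.62% of all genes. A positive log2 fold change was found for 29 of the 30, against 7161 of all 14003 genes, and the median was 1.24. MKI67, the Ki67 proliferation antigen, had 26.0, 30.0 and 12.8 CPM against 86.2, 38.1 and 59.2 CPM. The mitotic cyclin CCNB2 had 5.04, 4.16 and 2.48 CPM against 16.7, 6.82 and 10.4 CPM. CKS2, a CDK subunit, KIF11, a spindle motor, and NDC80, a kinetochore protein, had log2 fold changes of 1.25, 1.38 and 1.62 (standard errors 0.34, 0.40 and 0.50). Within the FNI+I-125 group, 28 of these 30 genes were highest in replicate 1. Of the 29 p53 targets, 4 were highest in that library and 17 were highest in replicate 2. Over all genes, the orders 1, 2, 3 and 1, 3, 2 of the replicates held 16.3% and 19.6%. The orders 2, 1, 3 and 2, 3, 1 held 13.8% and 19.8%.

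**Figure D5:**
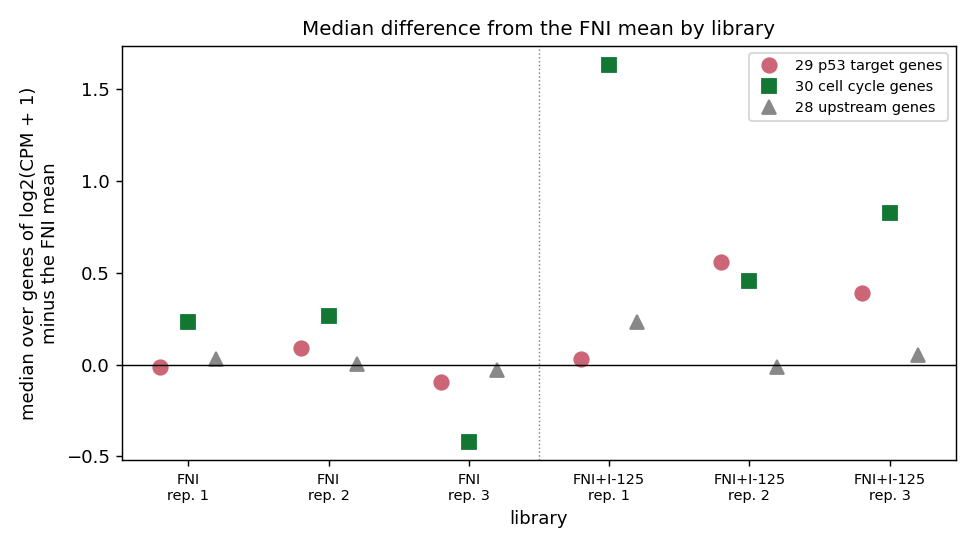
For each library, the median over genes of log2(CPM + 1) minus the FNI mean is shown for the 29 p53 target genes, the 30 cell cycle genes and the 28 genes upstream of p53. With the seed, replicates 1, 2 and 3 stand at 0.03, 0.56 and 0.39 for the p53 targets and at 1.63, 0.45 and 0.82 for the cell cycle genes.

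The last list held markers and secreted factors of cellular senescence, of which 14 were tested. At the unadjusted p, 6 (42.9%) were higher and 0 were lower, beside 9.23% and 7.73% of all genes. The median log2 fold change was 1.89. At the adjusted p, edgeR called 0 of the 14. DESeq2 called 4 higher and 0 lower, beside 3.86% and 2.62% of all genes. GLB1, the lysosomal beta-galactosidase, had 125, 125 and 112 CPM against 163, 295 and 221 CPM. The log2 fold change of 0.91 had a standard error of 0.23, DESeq2's adjusted p was 0.0226, and the order of replicates, 2 then 3 then 1, was that of CDKN1A. CXCL8 and PLAUR, the urokinase receptor, had their highest values in FNI+I-125 replicate 1, with log2 fold changes of 6.45 and 2.38 (standard errors 1.61 and 0.86). CXCL8, the neutrophil attractant interleukin 8, had 2.17, 2.08 and 1.18 CPM against 435, 12.2 and 28.1 CPM. Neutrophil markers, 7 of 9 with values and none at 0 throughout, summed to 1498 CPM in that library and to 16.2 to 170 CPM in the other 5, and their part was not tested. MMP1, a collagenase, had 2.64, 24.3 and 0.532 CPM against 233, 249 and 329 CPM, with a log2 fold change of 4.89 (standard error 1.34). LMNB1, whose loss rather than gain marks senescence, also stood in the list of cell cycle genes and had a positive log2 fold change. The summed markers of macrophages, Schwann cells, T and NK cells and adipocytes did not overlap between the groups, with the sums given above, and their part in these lists was not tested.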

How the data were processed

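The authors selected mRNA with oligo dT from facial nerve RNA, and made stranded, paired-end Illumina libraries. For each library they deposited raw counts, as whole numbers per gene. The submitters' processing notes name HISAT2 and the build OryCun2.0. The counting program, its strand setting and the annotation are not given in the sources used here. RefSeq symbols of assembly mOryCun1.1 were given to 542 of 2992 LOC numbers for the lists only, and no coordinates are printed since the builds differ. In 25 rows, with 0.188% of counts, a spreadsheet date stands in place of the gene name, and these were tested but not named.

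The tests used edgeR 4.0.16 under R 4.3.3 (TMM, filterByExpr with a minimum count of 10, glmQLFit and glmQLFTest, two-sided), DESeq2 1.42.0 and limma 3.58.1, each adjusted by the Benjamini-Hochberg method across every gene tested. The study's methods state thresholds but no testing tool. For single genes and ratios the 2 groups were set against each other by exact permutation, two-sided, on log2(CPM + 1) or log2 ratios. List values carry no test. Statistics were tested on simulated data. The group and replicate of each library came from its title. No label ties libraries to separate rabbits, while the study's methods give n = 3 per group for the sequenced part. The p-values measure the spread between these libraries.

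The members, roles and lists were chosen with earlier results of these data known. All members are named, with values per library for those at an unadjusted p under 0.05, and up to 5 genes with the smallest p from each further list. Some genes that this rule names are not reported here. Values of other members, the pair ratios, DESeq2 with each library left out and the fit without both muscle-rich libraries were chosen after seeing the data. Other alternatives were limma-voom, glmQLFit with legacy = FALSE, other scalings and filters, leaving out each library and a block for the replicate number.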

Additional observations from a re-analysis of the deposited data

How the results depend on the processing

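The design has 3 libraries per group, markers of muscle, gland, Schwann cells and macrophages vary between them, and the lowest counts of a target gene were those of SPATA18, 11 to 39 per library. Alternatives that leave out FNI+I-125 replicates 1 and 2 together, or a library in DESeq2, were chosen after seeing the data, and the cause of each difference was not tested. Over all genes, 0 were higher or lower at edgeR's adjusted p, while DESeq2 called 537 higher and 364 lower, and without each library in turn edgeR called 0 to 38 higher and 0 to 2 lower, all of them without FNI+I-125 replicate 3. At the unadjusted p, leaving out each library gave 860 to 1170 genes higher and 532 to 1081 lower, against 1293 and 1082 with all libraries, both lowest values being those without FNI+I-125 replicate 1. With FNI+I-125 replicates 1 and 2 left out together, the counts were 292 and 323, and the arm with 1 library is assumed to vary like the other.

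Among the 29 target genes, 8 were called higher by DESeq2 at the adjusted p and 0 by edgeR under any alternative. With each library left out, DESeq2 called 4 to 6 higher and 0 to 1 lower, with 4 higher without FNI replicate 1 or FNI+I-125 replicate 2 and 5 without FNI replicate 2 or FNI+I-125 replicate 3. At the unadjusted p in edgeR, 8 to 15 were higher and 0 to 1 were lower with each library left out, the 8 being without FNI replicate 1. The count lower was 0 with limma-voom and with library size only. Without overlap, 13 to 18 genes were higher and 1 to 2 were lower with each library left out. With upper-quartile scaling 2 were lower. With both muscle-rich libraries left out, 21 were higher and 2 were lower. FNI+I-125 replicate 3, the 1 seed library left there, lay above every FNI library for 31.9% of all genes and below for 26.9%. With all libraries, 14.8% of all genes were higher without overlap and 12.3% were lower. Groups of fewer libraries overlap less often, so the rise in these counts is no stronger result. The median log2 fold change kept its sign under every alternative run, from 0.25 to 0.45.

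The sign of the log2 fold change turned for PPM1D, FDXR, PERP, XPC, DDB2, SPATA18 and TP53I3. PPM1D was at -0.0023 with library size only, -0.022 with upper-quartile scaling, -0.0584 with both muscle-rich libraries left out, and -0.0631 to 0.0582 with each library left out. FDXR was at -0.0033 with upper-quartile scaling and -0.11 to 0.13 with each library left out. PERP ran from -2.24 to 0.40, XPC from -0.14 to 0.52, DDB2 from -0.20 to 0.42 and SPATA18 from -0.72 to 0.25 with each library left out. With both muscle-rich libraries left out, PERP was at 1.20 and TP53I3 at 0.0615.

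With the replicate number as a block, 11 target genes were higher and 0 were lower at the unadjusted p, losing PLK3, FAS and SESN1. Libraries with the same number did not deviate together, with correlations of deviations of 0.05, -0.19 and -0.14, so the numbers were not taken as pairs. Over single target genes and the alternatives other than DESeq2 with a library left out, 464 values were computed, of which 440 kept their direction and side of the adjusted threshold, 16 turned their sign and 8 passed it, these being DESeq2's calls with all libraries.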
